A study of Mus musculus with 8 samples.

Results

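The genes described here are the Wnt ligands, their receptors and co-receptors, the R-spondins, the secreted antagonists and a short set of nuclear factors and feedback genes, measured by RNA sequencing of mouse back skin epidermis. Members were the protein-coding genes whose symbols are Wnt, Fzd, Sfrp, Dkk or Rspo with a number, together with Lgr4, Lgr5, Lgr6, Lrp5, Lrp6, Axin2, Lef1, Tcf7, Wif1, Rnf43, Znrf3 and Notum. This rule gave 53 of the 55487 genes in the count tables, and 44 of the 53 had enough counts to be tested, among 19450 genes tested in all. All mice were FVB, genotype WT, and 7 to 8 weeks old. DMBA (7,12-dimethylbenz[a]anthracene) is a carcinogen that starts skin tumours by mutating keratinocytes, and TPA (12-O-tetradecanoylphorbol-13-acetate) is a phorbol ester that promotes them.

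Each of the 4 groups had 2 libraries. The DMBA group received 100 µl of DMBA at 1 mg/ml in acetone on the back, a single time, and skin was taken on day 10. The DMBA/TPA group received DMBA at 1 mg/ml and then TPA at 0.1 mg/ml 2 times per week until day 52. Control DMBA and Control DMBA/TPA were the acetone groups of these regimens, and the sources used here do not give their harvest days. Epidermis was freed from dermis with the enzyme Dispase II before RNA was extracted. Nothing in the labels says that the libraries came from separate animals, so p-values measure only the spread between libraries. In bulk epidermis, fewer cells of a type and less RNA per cell cannot be told apart.

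Wnt proteins are lipid-modified signals that bind a Frizzled receptor together with Lrp5 or Lrp6, which stabilises beta-catenin and lets it act with Lef1 or Tcf7 on target genes. R-spondins bind Lgr4, Lgr5 or Lgr6 and take the ubiquitin ligases Rnf43 and Znrf3 away from the Frizzleds, while Dkk, Sfrp, Wif1 and Notum proteins damp the signal outside the cell. In skin the pathway is known for hair follicle formation, for starting hair growth and for self-renewal of follicle and basal epidermal stem cells, and Axin2 is widely used as a readout because beta-catenin switches it on.

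A few members illustrate the promoter letters of this group: Axin2, the feedback gene with the smallest adjusted p of the members; Wnt3, the ligand with the highest level per length; and Wnt11, a ligand whose acetone groups differed. RefSeq promoter windows (build GRCm38.p6, 250 bases before to 50 after the start, 300 in all, 5′ to 3′ on the + strand for all 3) were searched on both strands for the 4 TCF/LEF core words of 7 letters (CTTTG followed by AA, AT, TA or TT), and matches are in capitals. The Axin2 window (chr11:108920099-108920398) held no match, the Wnt3 window (chr11:103773925-103774224) held CTTTGTT, and the upstream Wnt11 window (chr7:98834862-98835161) held CTTTGAT on the reverse strand.
Axin2: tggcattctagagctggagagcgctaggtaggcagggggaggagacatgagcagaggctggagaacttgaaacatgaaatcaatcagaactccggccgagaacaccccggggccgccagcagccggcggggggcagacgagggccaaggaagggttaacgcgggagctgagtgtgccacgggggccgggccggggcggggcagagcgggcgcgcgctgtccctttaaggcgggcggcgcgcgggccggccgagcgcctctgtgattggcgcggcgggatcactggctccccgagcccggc
Wnt3: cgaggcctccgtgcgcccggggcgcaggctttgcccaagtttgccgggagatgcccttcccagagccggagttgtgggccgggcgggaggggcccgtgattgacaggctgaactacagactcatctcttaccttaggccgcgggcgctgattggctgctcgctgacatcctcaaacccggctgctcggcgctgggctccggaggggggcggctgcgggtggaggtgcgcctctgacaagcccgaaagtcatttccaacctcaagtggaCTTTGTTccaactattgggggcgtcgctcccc
Wnt11: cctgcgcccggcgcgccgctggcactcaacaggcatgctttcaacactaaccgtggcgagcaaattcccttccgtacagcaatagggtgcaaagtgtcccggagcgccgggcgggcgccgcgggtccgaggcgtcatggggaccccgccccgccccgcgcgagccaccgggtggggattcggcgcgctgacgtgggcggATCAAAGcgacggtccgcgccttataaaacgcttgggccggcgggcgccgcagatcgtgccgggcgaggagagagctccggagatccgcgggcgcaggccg
Windows were found for 34 of the 53 members, 42 windows in all, and 6 of the 42 (14.3%) held at least 1 of these words, beside 5544 of 32851 windows (16.9%) over all genes. The member share was therefore not above that of promoters in general, and a window without a match says only that these letters are not in it.

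The libraries held 26300400 to 36002886 counts in genes. Basal keratinocyte markers, keratins 5 and 14 among them, summed to 17420 to 33875 CPM (counts scaled to TMM-adjusted library size) and suprabasal markers to 11356 to 23514, so the labelled tissue was present in every library. Markers of other cells differed between libraries. The 12 hair matrix and shaft genes summed to 670 CPM in DMBA/TPA library 1 and 158 in DMBA/TPA library 2, against 94.5 and 87.5 in Control DMBA/TPA, and to 138 and 245 for Control DMBA, then 146 and 107 for DMBA. The 9 inner root sheath genes summed to 3223 CPM in DMBA/TPA library 1 and to 654 to 1842 elsewhere. Against Control DMBA/TPA, 8 of these 9 were higher and 1 lower in DMBA/TPA (edgeR adjusted p under 0.05), beside 22.4% and 18.3% of all genes. In Control DMBA/TPA libraries 1 and 2, 3 and 2 of the 9 had no count, and all had counts in DMBA/TPA. Fibroblast genes (9) summed to 1273 and 3489 CPM in DMBA/TPA, 40.1 and 72.7 for Control DMBA/TPA, 1085 and 509 for Control DMBA, then 89.5 and 97.6 for DMBA. T cell genes (6) summed to 71.3 and 62.3 CPM in DMBA/TPA and to 129 to 199 in the other groups. In these sums DMBA/TPA library 1 stood apart by hair genes and DMBA/TPA library 2 by fibroblast genes. Results that lean on either are given without it.

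The levels per length show which members the epidermis carried. As CPM per kb of exon, averaged over all libraries, Fzd7 was highest at 43.5, followed by Wnt3 at 39.3, Fzd6 at 31.6, Wnt4 at 29.0, Wnt10a at 28.2, Fzd1 at 28.1, Lrp5 at 27.5, Axin2 at 23.5 and Fzd10 at 23.4. The neighbours from Wnt4 to Lrp5 lay within the spread of the libraries. In DMBA/TPA the order opened with Wnt4 (35.8 CPM per kb), Wnt10a (31.6), Lrp5 (30.6) and Wnt3 (30.3), whereas in DMBA it opened with Fzd7 (61.7), Wnt3 (39.7) and Fzd6 (36.7). At the other end, 15 of the 53 members averaged under 1 CPM. Wnt1, Wnt8a, Wnt8b, Rspo1, Rspo2, Dkk1, Dkk4, Sfrp4 and Sfrp5 were too low to be tested, and Dkk4, a secreted antagonist of the Lrp co-receptors, had no count in any library.

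**Figure D1:**
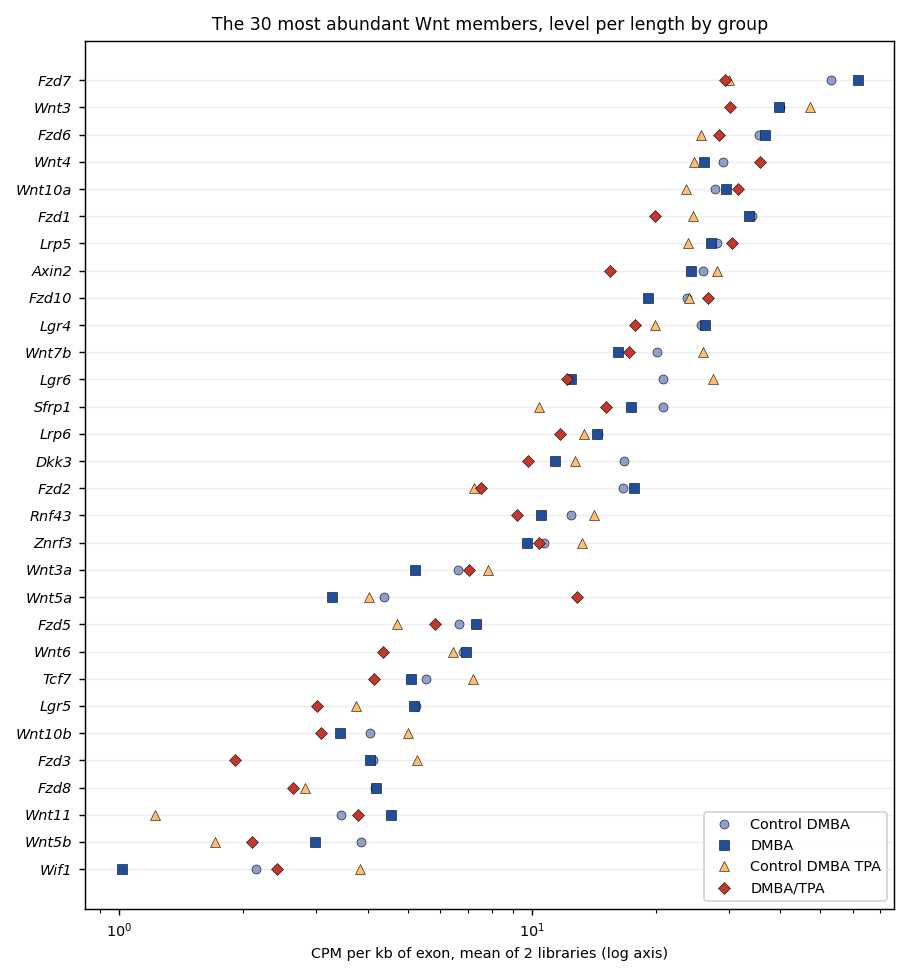
Mean level of the 30 most abundant members in each group, as CPM per kb of exon on a log axis, 1 symbol per group of 2 libraries. Fzd7 and Wnt3 lead the list, Axin2 sits lowest in DMBA/TPA, and Wnt5a sits apart in DMBA/TPA at 12.8 CPM per kb. Lgr6 is alike in DMBA (12.4 CPM per kb) and DMBA/TPA (12.2), below both acetone groups.

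With DMBA alone at day 10, no member passed the test against Control DMBA (0 of 44 at adjusted p under 0.05, edgeR quasi-likelihood), beside 0.267% of all genes tested (0.19% higher and 0.0771% lower). At an unadjusted edgeR p under 0.05 there were 5 of the 44 members, beside 1835 of 19450 genes. These members were Wnt2, with a log2 fold change of 1.72, and Wnt16, Rspo3, Lgr6 and Sfrp1, with -0.69, -1.60, -0.74 and -0.26. DESeq2 called 1 member, beside 2.2% of all genes, and limma voom none, beside 0.237%. The fit without a low-count filter called 3, beside 2.09%. Against the other acetone set 12 members were called (7 higher, 5 lower), beside 16.5% of all genes. Sfrp1 was among these with 0.74 (edgeR adjusted p = 0.00559), the opposite sign to its value against Control DMBA. Lgr6, which marks stem cells of the upper follicle and epidermis, measured 157 and 128 CPM in Control DMBA and 73.7 and 96.7 in DMBA, so the libraries did not overlap, but the adjusted p was 0.326. Rspo3 measured 5.72 and 3.51 CPM in Control DMBA and 0.711 and 2.28 in DMBA, with an adjusted p of 0.315. Over the 44 members the median log2 change was -0.16, beside -0.01 over all genes, and 32 of 44 values were negative.

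After DMBA/TPA, 21 of the 44 tested members passed the test against Control DMBA/TPA, 10 higher and 11 lower. This is 47.7% of those tested, beside 40.7% of all genes (22.4% higher and 18.3% lower), so members were called at about the rate of the background. The pathway did not move one way as a whole. Wnt5a, Wnt11, Fzd4, Rspo4, Sfrp2 and Notum were among the higher genes, and Axin2, Rnf43, Rspo3, Lgr6, Fzd3 and several canonical ligands among the lower. The median log2 change of the members was -0.11. Without Control DMBA/TPA library 1, Control DMBA/TPA library 2 or DMBA/TPA library 2, 9, 10 and 12 members were called, beside 18, 21.5 and 23.7% of all genes. Without DMBA/TPA library 1 there were 21, of which 19 were among the original 21, beside 43.4% of all genes. Against all 4 acetone libraries 7 members were called, beside 23.8% of all genes, and against the other acetone set 10 (1 higher, 9 lower), beside 19.4% of all genes.

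**Figure D2:**
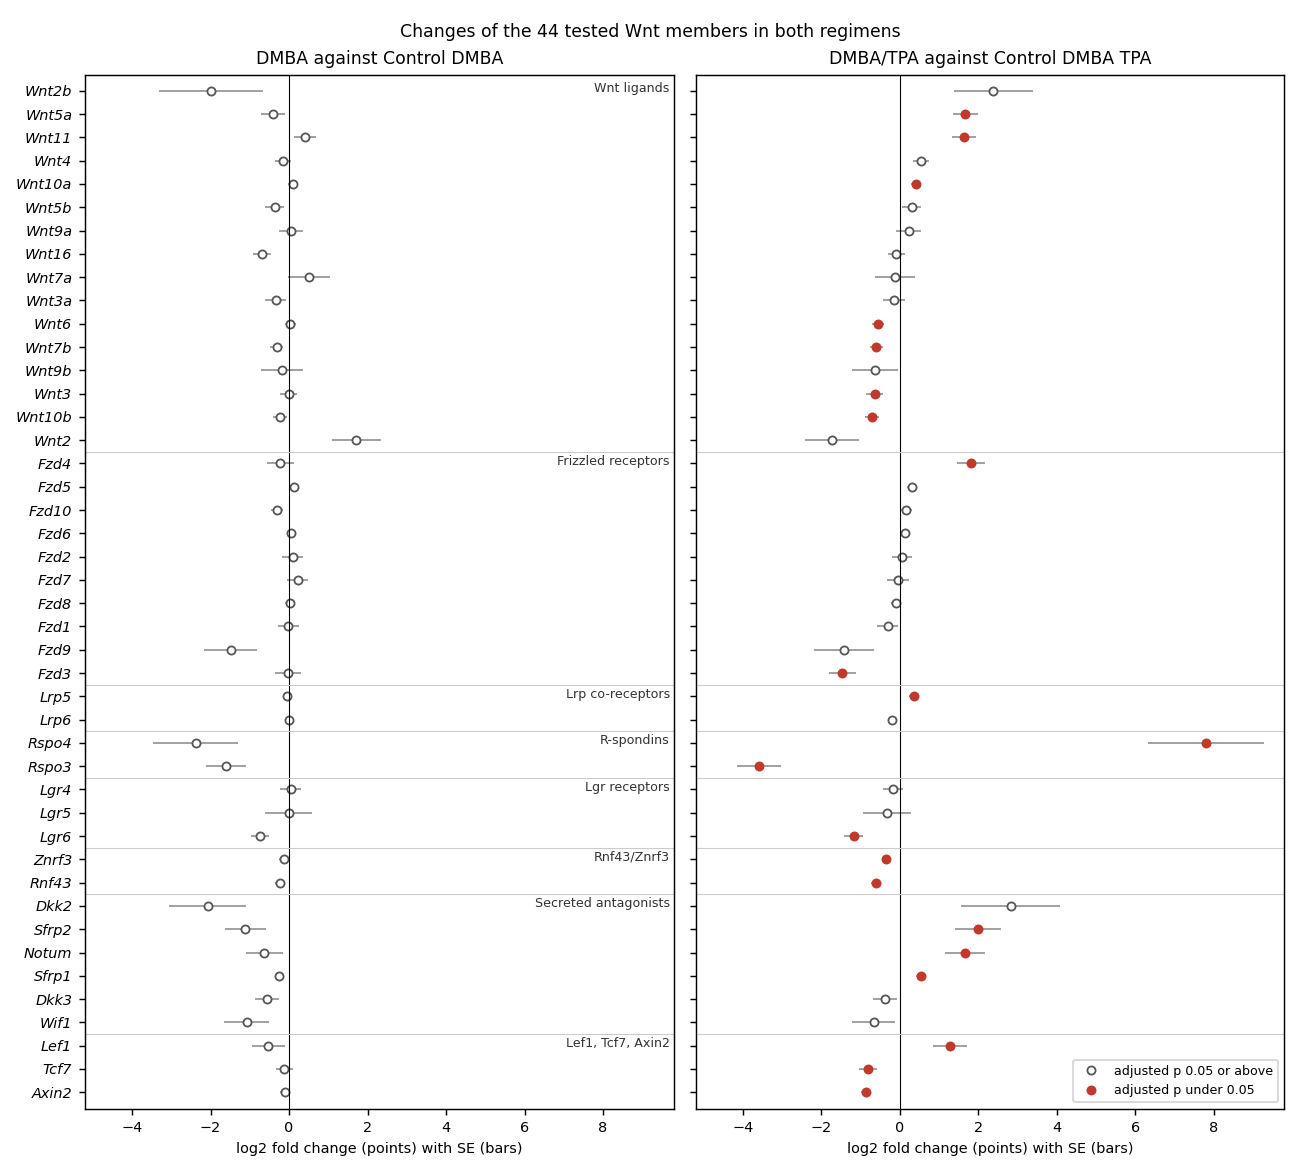
Log2 fold change of each tested member, with its standard error as the bar, in DMBA against Control DMBA (left) and DMBA/TPA against Control DMBA/TPA (right), grouped by role. Filled red points have an adjusted p under 0.05: 0 on the left and 21 on the right. The Rspo4 value at the right edge rests on a control group with no counts and is no bound.

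Axin2, the feedback scaffold of the beta-catenin destruction complex (chr11:108920349-108950783, mm10), fell after DMBA/TPA. It measured 156 and 153 CPM in Control DMBA/TPA against 94.1 and 76.8 in DMBA/TPA, where the earlier pair gave 138 and 149 (Control DMBA) and 122 and 146 (DMBA). Both DMBA/TPA libraries lay below every other library. The log2 fold change was -0.86 ± 0.13 (SE, n = 2 per group, edgeR adjusted p = 0.00248), and the call held in 17 alternatives, with adjusted p up to 0.0227. These 17 leave out a minimum change of 2-fold, which neither Axin2 nor Rnf43 reached. In DMBA the change was -0.10 ± 0.13 (edgeR adjusted p = 0.957). The difference between the 2 responses was -0.76 ± 0.19 (edgeR adjusted p = 0.0367), but that call was lost without either Control DMBA library (0.0686 and 0.076), DMBA library 2 (0.142), either Control DMBA/TPA library (0.127 and 0.101) or DMBA/TPA library 2 (0.0646).

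Of the 2 nuclear partners of beta-catenin among the members, Tcf7 was called lower and Lef1 higher after DMBA/TPA. The call held in 11 of the 17 alternatives for Tcf7 and in 4 for Lef1. Tcf7 measured 17.0 and 20.8 CPM in Control DMBA/TPA against 13.2 and 8.50 in DMBA/TPA, and fell by 0.80 ± 0.22 on the log2 scale (edgeR adjusted p = 0.0225). Tcf7 is also a T cell gene, and all 6 T cell markers fell in the same comparison; their part in the Tcf7 result was not tested. Leaving out Control DMBA/TPA library 1 or 2 or DMBA/TPA library 2, its adjusted p was 0.054, 0.12 and 0.0927. The Tcf7 call was also lost against the other acetone set (-0.42, 0.209) and against all acetone libraries (-0.62, 0.0849). Lef1, known as a factor of the hair matrix, measured 3.59 and 6.62 CPM in Control DMBA/TPA against 18.1 and 6.93 in DMBA/TPA. Only DMBA/TPA library 1, the library with the high hair genes, was well above the controls. The log2 change of 1.28 ± 0.44 (edgeR adjusted p = 0.0457) was 0.44 without that library (0.321). Without Control DMBA library 1 or 2, DMBA library 1 or 2, or Control DMBA/TPA library 1 or 2 the adjusted p was 0.0533, 0.0543, 0.0699, 0.0706, 0.228 and 0.0525. Against the other acetone set it was 0.31 (0.629), and against all acetone libraries 0.72 (0.28). The call thus held in 4 of those 17 alternatives, and 9 of the 12 hair matrix and shaft genes were higher in this comparison; their part in the Lef1 result was not tested.

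**Figure D3:**
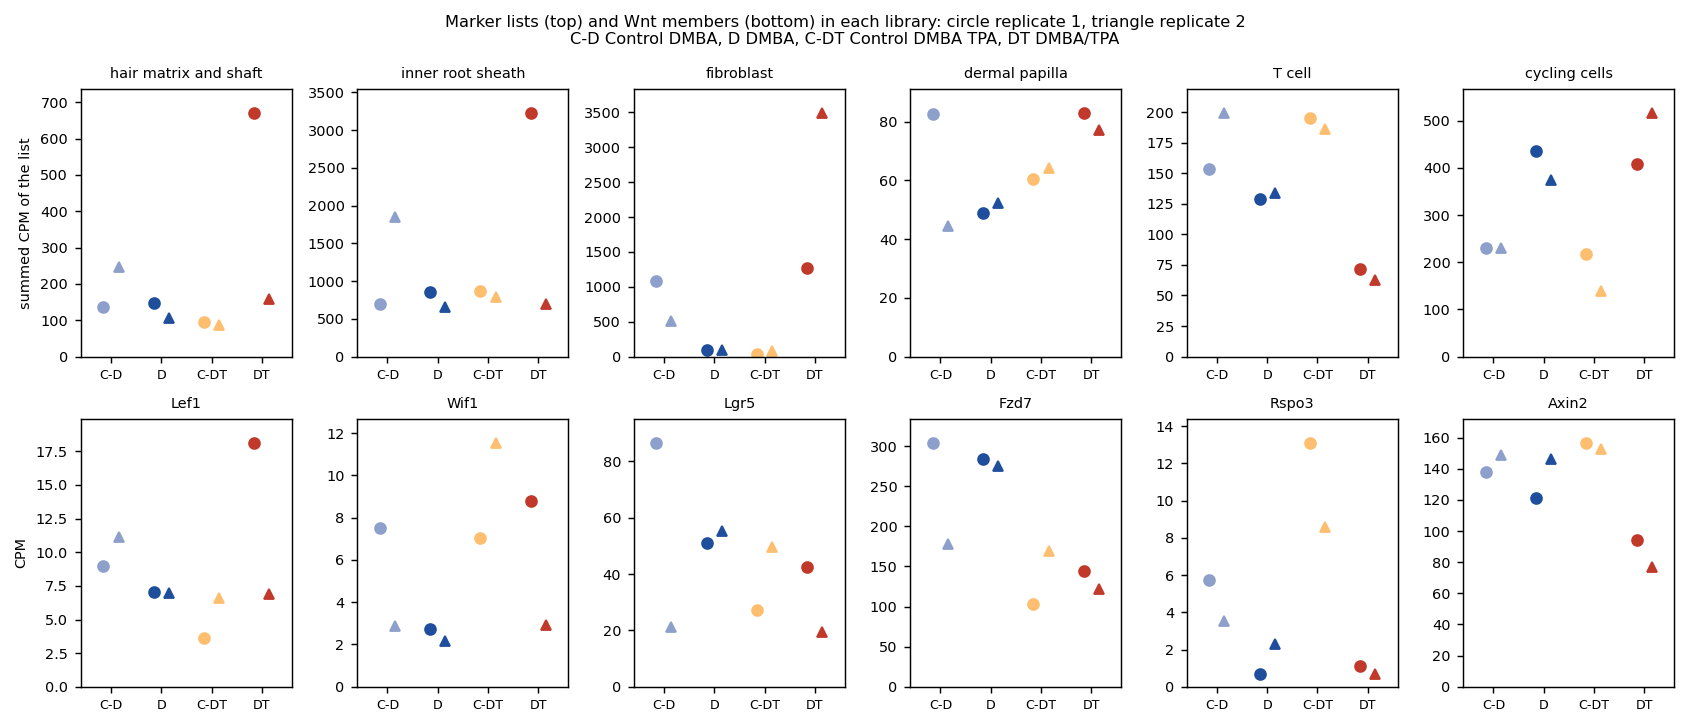
Summed CPM of 6 marker lists (top) and CPM of 6 members (bottom) in each library; circles are replicate 1 and triangles replicate 2. Lef1 is high in the same DMBA/TPA library (18.1 CPM) as the hair genes (670 CPM summed), whereas Axin2 and Rspo3 are low in both DMBA/TPA libraries.

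Both surface ubiquitin ligases that remove Frizzled receptors fell after DMBA/TPA. Rnf43 (chr11:87662722-87735539) measured 95.3 and 90.4 CPM in Control DMBA/TPA against 62.9 and 58.1 in DMBA/TPA, while the Control DMBA libraries gave 80.5 and 83.1 and the DMBA libraries 63.5 and 74.8. Its log2 change was -0.62 ± 0.11 (edgeR adjusted p = 0.00383), under the 2-fold minimum, and the call held in the same 17 alternatives. Znrf3 measured 110.3 and 98.5 CPM in Control DMBA/TPA against 85.5 and 78.6 in DMBA/TPA, a change of -0.35 ± 0.11 (edgeR adjusted p = 0.0339). The groups of Znrf3 did not overlap, yet the change relative to the other acetone pair was -0.042 (adjusted p = 0.81). Against all acetone libraries it was -0.20 (0.289). It was -0.26 (0.209) without Control DMBA/TPA library 1, and the adjusted p was 0.0599 without Control DMBA/TPA library 2, 0.138 without DMBA/TPA library 2, and 0.0519 and 0.0515 without DMBA library 1 and 2.

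Of the R-spondins, Rspo3 fell and Rspo4 rose after DMBA/TPA. Rspo3 (chr10:29452416-29535867) measured 13.1 and 8.60 CPM in Control DMBA/TPA against 1.14 and 0.666 in DMBA/TPA, a log2 change of -3.58 ± 0.56 (edgeR adjusted p = 0.00254). This was the largest fall among the called members, and it was called in those 17 alternatives and with the 2-fold minimum. Against the other acetone set (5.72 and 3.51 CPM) it was smaller, at -2.35 (adjusted p = 0.0237). Rspo4, known from nail development in humans, had no count in Control DMBA/TPA and 45 counts in DMBA/TPA (0.669 and 1.097 CPM). Measured against a floor of 3 counts over the group, it was at least 19.2-fold higher (edgeR adjusted p = 0.00654), and its level stayed near 1 CPM. The adjusted p was 0.124 against the other acetone set, where Rspo4 had 17 counts, and 0.0946 against all acetone libraries.

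Of the R-spondin receptors, Lgr6 fell after DMBA/TPA. It measured 178 and 198 CPM in Control DMBA/TPA against 105 and 62.0 in DMBA/TPA, a log2 change of -1.17 ± 0.24 (edgeR adjusted p = 0.00698). Both DMBA/TPA libraries were below both acetone pairs, and the call held without each library in turn (adjusted p up to 0.0399), though not against the other acetone set (0.0557). Lgr5, which marks stem cells of the lower hair follicle, could not be judged. Its CPM were 86.4 and 21.04 for Control DMBA, 51.2 and 55.4 for DMBA, 27.4 and 49.5 for Control DMBA/TPA, then 42.6 and 19.3 for DMBA/TPA. The replicates of Control DMBA differed 4.11-fold, and the DMBA change of -0.01 turned to 1.34 without Control DMBA library 1. Lgr4, the broadly expressed receptor, changed by -0.17 ± 0.26 (edgeR adjusted p = 0.63).

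Among the Wnt ligands, Wnt5a, which acts mostly without beta-catenin, rose after DMBA/TPA. Wnt5a (chr14:28504750-28527448) measured 31.9 and 31.2 CPM in Control DMBA/TPA against 67.1 and 134 in DMBA/TPA, while it was 26.9 and 41.8 for Control DMBA and 25.3 and 26.1 for DMBA. Both DMBA/TPA libraries were above every other library. The log2 change was 1.67 ± 0.31 (edgeR adjusted p = 0.00481) and was called in those 17 alternatives and with the 2-fold minimum. Without DMBA/TPA library 2, the one with the high fibroblast genes, it was 1.09. Wnt5a is known in dermal fibroblasts as well as epidermis, and 8 of 9 fibroblast markers rose in this comparison; their part in the Wnt5a result was not tested. The difference between the responses was 2.09 ± 0.44 (edgeR adjusted p = 0.0233), lost without Control DMBA library 2 (0.0615), DMBA library 1 or 2 (0.0753 and 0.0974) or Control DMBA/TPA library 1 or 2 (0.0893 and 0.0854). On the opposite strand, exons of Gm2670 overlap Wnt5a, with 49 to 105 counts per library.

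The 4 ligands that fell were all at 9.44 CPM or above in every library. Wnt7b measured 121 and 134 CPM in Control DMBA/TPA against 95.04 and 73.2 in DMBA/TPA, a log2 change of -0.60 ± 0.16 (edgeR adjusted p = 0.0208). Wnt3, a canonical ligand of the follicle, measured 142 and 149 CPM in Control DMBA/TPA against 104 and 81.9 in DMBA/TPA, a change of -0.64 ± 0.21 (adjusted p = 0.0422). The Wnt10b libraries gave 18.3 and 15.8 CPM against 11.5 and 9.44, a change of -0.70 ± 0.18 (adjusted p = 0.0171), for a ligand known to start hair growth. Wnt6 gave 14.7 and 13.5 CPM against 9.72 and 9.44, a change of -0.56 ± 0.14 (adjusted p = 0.0167). In these 4 genes the treated libraries lay below their controls. Against the other acetone set Wnt6 remained called (-0.64, adjusted p = 0.0204), whereas Wnt3, Wnt7b and Wnt10b did not (0.209, 0.34 and 0.158). The same held against all acetone libraries, with 0.0172 for Wnt6 and 0.0937, 0.123 and 0.0661 for the others. Without Control DMBA/TPA library 1 the adjusted p was 0.121, 0.064, 0.111 and 0.104 for Wnt3, Wnt7b, Wnt10b and Wnt6. Without DMBA/TPA library 2 it was 0.191, 0.102, 0.0829 and 0.0591. Without Control DMBA/TPA library 2 it was 0.139, 0.102 and 0.0544 for Wnt3, Wnt7b and Wnt6, and for Wnt3 it was 0.053 and 0.0532 without DMBA library 1 and 2.

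Wnt10a and Wnt11 rose after DMBA/TPA, to different extents. Wnt11, a ligand mostly linked to non-canonical signalling, measured 4.22 and 5.85 CPM in Control DMBA/TPA against 19.8 and 11.6 in DMBA/TPA, a log2 change of 1.63 ± 0.30 (edgeR adjusted p = 0.00456). The acetone sets of Wnt11 differed by nearly as much: Control DMBA measured 16.4 and 12.1 CPM, close to DMBA/TPA. Against that set the Wnt11 change was 0.14 (adjusted p = 0.758), and against all acetone libraries 0.70 (0.323). Wnt10a, whose loss in humans impairs teeth, hair and nails, measured 60.4 and 56.4 CPM in Control DMBA/TPA against 70.4 and 85.6 in DMBA/TPA, a change of 0.42 ± 0.13 (adjusted p = 0.0337). The Wnt10a change was 0.27 (adjusted p = 0.166) without DMBA/TPA library 2, and the adjusted p was 0.102 and 0.175 without Control DMBA/TPA library 1 and 2 and 0.0651 and 0.0653 without DMBA library 1 and 2. Against the other acetone set the change was 0.18 (0.338), and against all acetone libraries 0.30 (0.132).

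Of the other ligands tested, Wnt2, Wnt2b, Wnt3a, Wnt4, Wnt5b, Wnt7a, Wnt9a, Wnt9b and Wnt16 were not called in DMBA/TPA. Wnt4, the most abundant ligand per length in DMBA/TPA, gave a log2 change of 0.53 ± 0.21 (adjusted p = 0.0701). Wnt2 stood at 0.440 and 2.82 CPM for Control DMBA, 5.14 and 5.63 for DMBA, 2.58 and 2.25 for Control DMBA/TPA, then 0.708 and 0.744 for DMBA/TPA. The Wnt2 pattern ran in opposite senses in the 2 regimens, with changes of 1.72 ± 0.62 and -1.73 ± 0.69, and neither passed alone. The difference between them was -3.44 ± 0.92 (edgeR adjusted p = 0.0466). It was lost without DMBA library 1 or 2 (0.103 and 0.143), Control DMBA/TPA library 1 or 2 (0.136 and 0.109) or DMBA/TPA library 1 or 2 (0.0504 and 0.0894).

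**Figure D4:**
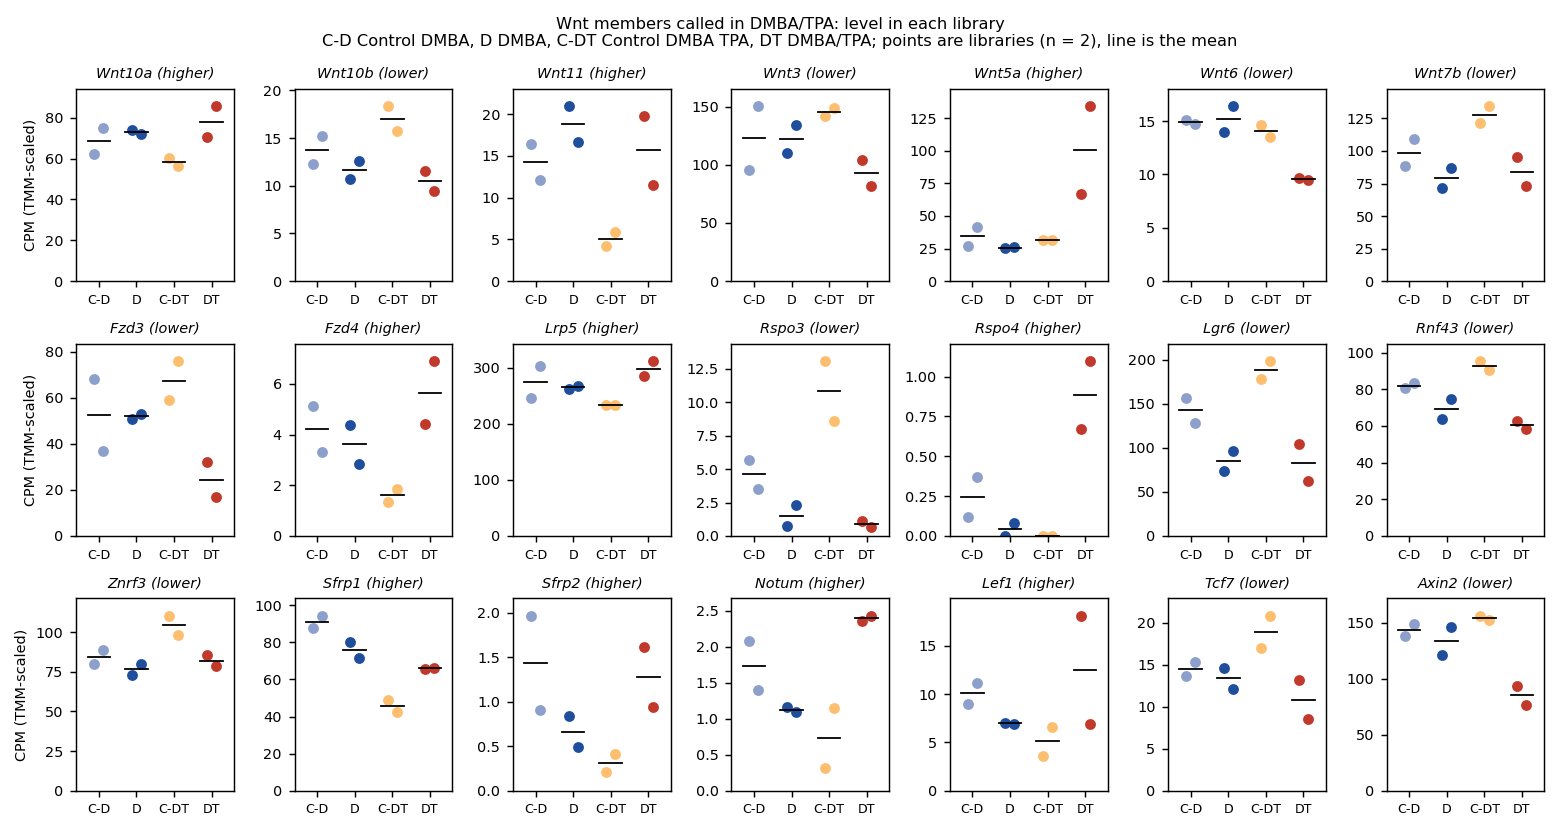
CPM of the 21 members called in DMBA/TPA against Control DMBA/TPA, in each of the 8 libraries (points) with the group mean (line). In DMBA/TPA the Axin2, Rnf43, Lgr6 and Rspo3 points lie below those of Control DMBA/TPA and the Wnt5a points above them.

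Among the Frizzled receptors, 2 of the 10 were called after DMBA/TPA, beside the 40.7% of all genes. Fzd3, a receptor known in planar polarity, fell: it measured 59.1 and 76.0 CPM in Control DMBA/TPA against 32.0 and 16.8 in DMBA/TPA, a log2 change of -1.47 ± 0.34 (edgeR adjusted p = 0.0116). Without Control DMBA/TPA library 2 the adjusted p was 0.0626, and it was 0.055 with the other acetone set as control. Fzd4, known as a receptor in vessel growth, rose from 1.32 and 1.87 CPM to 4.41 and 6.89, a log2 change of 1.81 ± 0.37 (adjusted p = 0.0065). The Fzd4 call was lost without Control DMBA/TPA library 1 and against the other acetone set, where the change was 0.42 (0.407). It was also lost against all acetone libraries (0.955, adjusted p = 0.186). Endothelial markers rose alongside (6 of 7), from 0.907 and 1.21 to 18.8 and 44.8 summed CPM; their part in the Fzd4 result was not tested. The difference between responses for Fzd4 was 2.04 ± 0.50 (adjusted p = 0.037), lost without Control DMBA library 1 (0.0759), DMBA library 1 or 2 (0.0627 and 0.144), Control DMBA/TPA library 1 or 2 (0.134 and 0.0842) or DMBA/TPA library 2 (0.0773). Fzd7, the most abundant, changed by -0.04 ± 0.28 (adjusted p = 0.923).

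Of the co-receptors, Lrp5 measured 233 CPM in both Control DMBA/TPA libraries and 284 and 311 in DMBA/TPA, a log2 change of 0.35 ± 0.12 (edgeR adjusted p = 0.0436), while Lrp6 gave -0.19 ± 0.10 (adjusted p = 0.169). The Lrp5 change was small and its adjusted p was 0.166 without either Control DMBA/TPA library, 0.154 without DMBA/TPA library 2 and 0.0819 and 0.0823 without DMBA library 1 and 2. In Control DMBA it measured 245 and 303 CPM, overlapping DMBA/TPA; against that set the change was 0.12 (0.499), and against all acetone libraries 0.23 (0.205).

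Of the secreted antagonists, 3 of the 6 tested rose after DMBA/TPA, and none fell, beside 22.4% of all genes higher and 18.3% lower. Sfrp1, which binds Wnt proteins, measured 49.1 and 42.2 CPM in Control DMBA/TPA against 65.9 and 66.4 in DMBA/TPA, a log2 change of 0.54 ± 0.11 (edgeR adjusted p = 0.00723). In Control DMBA it measured 87.7 and 94.2 CPM, above DMBA/TPA, so the direction turned with the control: against that set it was -0.46 (adjusted p = 0.025), and against all acetone libraries -0.047. It was 0.42 without Control DMBA/TPA library 2 (0.0647). Sfrp2 measured 0.209 and 0.412 CPM against 1.61 and 0.940 in DMBA/TPA, a change of 1.99 ± 0.58 (adjusted p = 0.0263), which was -0.17 with the other acetone set as control. Sfrp2 is a fibroblast gene in skin, and the fibroblast markers rose in the same comparison. Within DMBA/TPA, Sfrp2 was higher in library 1 and the fibroblast sum was higher in library 2 (1273 and 3489 CPM). The part of these markers in the Sfrp2 result was not tested. Without Control DMBA/TPA library 1 or 2 or DMBA/TPA library 1 the Sfrp2 adjusted p was 0.138, 0.0586 and 0.099. Notum, an enzyme that strips the lipid from Wnt proteins, measured 0.314 and 1.15 CPM against 2.36 and 2.43, a change of 1.66 ± 0.50 (adjusted p = 0.03). Its adjusted p was 0.0976 without Control DMBA/TPA library 1 (1.05), 0.0792 without DMBA/TPA library 2, 0.0514 and 0.0518 without DMBA library 1 and 2, and 0.509 against the other acetone set. Against all acetone libraries Sfrp2 gave 0.54 (adjusted p = 0.622) and Notum 0.94 (0.225). Against Control DMBA/TPA, Dkk2, Dkk3 and Wif1 gave 2.83, -0.38 and -0.67, with adjusted p of 0.104, 0.341 and 0.364.

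The responses to the regimens were compared directly as the DMBA/TPA change minus the DMBA change, each against its own acetone group. Of the 44 members 7 were called (15.9%), beside 12.6% of all genes (8.7% higher and 3.95% lower). Besides Axin2, Wnt2, Wnt5a and Fzd4, already described, these were Rspo4, Sfrp1 and Sfrp2. Each difference also holds the gap between the acetone groups, Control DMBA/TPA against Control DMBA. On the log2 scale that gap was -0.996 for Sfrp1, -2.16 for Sfrp2, -1.39 for Fzd4 and a fitted -5.98 for Rspo4. It was 0.11 for Axin2, 0.56 for Wnt2 and -0.12 for Wnt5a. Sfrp1 measured 80.3 and 71.7 CPM in DMBA against 65.9 and 66.4 in DMBA/TPA, the opposite order to its difference. Sfrp1 gave 0.80 ± 0.16 (edgeR adjusted p = 0.0192), lost without Control DMBA library 2 (0.0601), DMBA library 2 (0.0987) or Control DMBA/TPA library 2 (0.0803). Sfrp2 gave 3.11 ± 0.78 (adjusted p = 0.0386), lost without Control DMBA library 1 (0.078), DMBA library 1 or 2 (0.0729 and 0.145), Control DMBA/TPA library 1 or 2 (0.135 and 0.0826) or DMBA/TPA library 1 (0.05). Rspo4 gave a fitted 10.19 (adjusted p = 0.0205), which rests on a group with no counts and is no bound; it was lost without Control DMBA library 2 (0.0734) or either Control DMBA/TPA library (0.0665 and 0.0664). Each of these 7 calls was lost when at least 1 library was left out, and the share of all genes called also fell in most of these fits. Of the 21 members called in DMBA/TPA 12 (57.1%) had the same sign in DMBA, beside 68.2% of all genes called in DMBA/TPA. The 2 directions differed in this. Of the 11 members called lower 10 (90.9%) had the same sign, beside 73.3% of all genes called lower. Of the 10 called higher 2 (20%) did, beside 64.1% of all genes called higher. No library is used in both of these comparisons. In DMBA no member was called, and 32 of all 44 values were negative, which favours a shared sign for members called lower. With the other acetone set as control, 14 of the 44 signs in DMBA turned.

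The acetone groups differed from each other in some members. Control DMBA/TPA against Control DMBA called 6 of 44 (13.6%), all lower, beside 6.25% of all genes (4.28% lower and 1.97% higher). Sfrp1 measured 87.7 and 94.2 CPM in Control DMBA and 49.1 and 42.2 in Control DMBA/TPA, a log2 change of -0.996 ± 0.11 (edgeR adjusted p = 0.0052), lost only without Control DMBA/TPA library 2 (0.0516). Fzd2 gave 77.2 and 44.8 CPM against 22.9 and 30.01 (-1.20 ± 0.26, adjusted p = 0.0369). The Fzd2 control libraries themselves differed 1.72-fold. Wnt11 changed by -1.49 ± 0.30 (adjusted p = 0.0284), from 16.4 and 12.1 CPM to 4.22 and 5.85. For Wnt5b the change was -1.18 ± 0.25 (0.0327), from 9.38 and 11.1 CPM to 5.09 and 3.96. Fzd6 changed by -0.47 ± 0.09 (0.0291), from 176 and 167 CPM to 125 and 122, and Fzd8 by -0.56 ± 0.12 (0.0355), from 25.2 and 24.5 to 17.3 and 16.5. Each of these 6 calls was lost when at least 1 library was left out, and the share of all genes called also fell in most of these fits. Lower in Control DMBA/TPA were also 7 of 9 fibroblast markers, 7 of 9 inner root sheath, 3 of 12 hair matrix and shaft, 3 of 7 endothelial and 3 of 7 melanocyte markers; their part in these results was not tested.

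Replicates varied by member. Among the 38 members at 1 CPM or above, the median ratio of the higher to the lower library was 1.23 for Control DMBA, 1.11 for DMBA, 1.19 for Control DMBA/TPA, then 1.27 for DMBA/TPA, and 13, 3, 9 and 13 members differed by over 1.5-fold. In Control DMBA the ratio of library 1 to library 2 lay farthest from 1 for Wnt2, at 0.156. Of the 13 members over 1.5-fold there, 10 were higher in library 1, among them Lgr5 (4.11-fold), Wif1 (2.62), Dkk3 (2), Fzd3 (1.85), Fzd2 (1.72) and Fzd7 (1.71). In DMBA/TPA, library 1 was higher for Wif1 (2.99), Lef1 (2.61), Lgr5 (2.21) and Fzd3 (1.91).

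Other genes of the pathway were 64 genes for Wnt secretion, other receptors, other secreted modulators, the destruction complex, nuclear partners, planar polarity and other targets. Of the 60 tested, 32 were called after DMBA/TPA (53.3%), 17 higher and 15 lower, beside 40.7% of all genes. None was called after DMBA by edgeR, beside 0.267% of all genes. An unadjusted edgeR p under 0.05 was found for 6, beside 1835 of 19450 genes. DESeq2 called 3, beside 2.2% of all genes, and limma voom 0, beside 0.237%. The higher genes with the smallest adjusted p were Porcn, which adds the lipid to Wnt proteins (2.23, 0.000498), Dact2 (2.04, 0.00231), the casein kinase Csnk1e (0.86, 0.00239) and Ctnnbip1, a beta-catenin inhibitor (0.67, 0.00268). Porcn measured 8.93 and 10.4 CPM in Control DMBA/TPA against 40.1 and 51.2 in DMBA/TPA. It measured 14.3 and 19.1 CPM in Control DMBA and 40.1 and 30.1 in DMBA (1.07, edgeR adjusted p = 0.102). The lower genes were Gpc3 (-3.47, 0.000328), a glypican, Pygo1 (-1.90, 0.00168) and Bcl9 (-0.75, 0.00193), co-activators of beta-catenin, and Wls (-0.95, 0.00321), which carries Wnt proteins to the cell surface. Gpc3 measured 21.2 and 14.5 CPM in Control DMBA/TPA against 1.85 and 1.37 in DMBA/TPA. It measured 19.8 and 16.6 CPM in Control DMBA and 7.17 and 9.21 in DMBA (-1.15, edgeR adjusted p = 0.125). The acylation enzyme and the carrier of Wnt proteins thus moved in opposite directions, and Dact2 lost its call against the other acetone set (-0.067, 0.888). Wls (-0.51, 0.0562) and Csnk1e (0.32, 0.113) did too, Csnk1e also against all acetone libraries (0.0681). The count of 32 was lower without either Control DMBA/TPA library or DMBA/TPA library 2, as was the share of all genes called.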

How the data were processed

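Epidermis of 8 mouse libraries (4 groups of 2) was sequenced after rRNA depletion with a directional kit, per the labels' protocols. TopHat2, Bowtie2, cutadapt and FastQC with genome build mm10 are named in the submitters' processing notes; the sources used here do not give versions, the counting tool or its strandedness. The authors deposited raw counts per gene, 1 table per library, with 5 summary rows (no feature, ambiguous and the like) that were left out; genes held 35.2 to 43.3% of each table's total. Identifiers were matched to GENCODE M21 (55141 of 55487, 99.4%). Depth was 26300400 to 36002886 counts per library; a group of 2 limits precision more than depth does.

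Genes were filtered with filterByExpr (minimum count 10, total 15), scaled by TMM and tested with edgeR 4.0.16 (R 4.3.3) quasi-likelihood in a single fit of all 8 libraries with a mean per group; p-values were Benjamini-Hochberg adjusted over 19450 genes and called under 0.05. CPM uses TMM-scaled sizes, and levels between genes are CPM per kb of exon. Alternatives were DESeq2 1.42.0, limma voom 3.58.1, RLE size factors, library totals alone, all genes with a count, a replicate block, only the compared groups, other acetone controls, a 2-fold minimum and each library left out. The code was tested on simulated data. For members called in at least 1 comparison, library values and test results cover a comparison with a call, not always all 4 groups. Axin2, Lef1, Lgr5, Lgr6, Notum and Wnt10a are described whether called or not. Up to 4 other pathway genes per direction and comparison, by smallest adjusted p, could be named. The members and gene lists were chosen with earlier results of these data known. Whether antisense reads were separated is not known: exons of AU022754 (13 to 128 counts) and Gm26704 (16 to 59) overlap Wnt7b and Fzd6 on the other strand, as smaller partners do for other members.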

Additional observations from a re-analysis of the deposited data

Results flagged for a closer look

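The response to DMBA/TPA differed from the response to DMBA in 7 of the 44 members (15.9%), beside 12.6% of all genes. The test was of the difference itself (edgeR quasi-likelihood, each response against its own acetone group, log2 scale). The differences were -3.44 for Wnt2, 2.09 for Wnt5a, 2.04 for Fzd4, 10.19 for Rspo4, 0.80 for Sfrp1, 3.11 for Sfrp2 and -0.76 for Axin2. The Rspo4 value is fitted against a group with no counts and is no bound. Each difference also holds the gap between the acetone groups, which was -0.996 for Sfrp1, -2.16 for Sfrp2, -1.39 for Fzd4 and a fitted -5.98 for Rspo4. For Axin2, Wnt2 and Wnt5a that gap was 0.11, 0.56 and -0.12. All 7 lost their call when at least 1 library was left out. Such a fit leaves a group of 1 library, and the share of all genes called also fell in most of these fits.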

How the results depend on the processing

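Of the 21 members called after DMBA/TPA, Axin2, Rnf43, Rspo3 and Wnt5a were called in all 17 alternatives other than the 2-fold minimum, which Axin2 and Rnf43 did not reach. Member calls follow, with the share of all genes called in brackets. In DMBA they were 3 with no low-count filter (2.09%), 1 with DESeq2 (2.2%) and 12 with the other acetone set (16.5%). In DMBA/TPA they were 7 with all 4 acetone libraries (23.8%), 10 with the other acetone set (19.4%) and 10 with a 2-fold minimum (19.8%). In the difference of responses they were 14 with no filter (12.8%), 13 with DESeq2 (17.6%) and 4 with the replicate block (10.8%). Between acetone groups they were 14 with no filter (7.74%), 12 with DESeq2 (10.7%) and 3 with the 2-fold minimum (3.82%). For the other Wnt genes the same settings gave 4, 3 and 17 in DMBA, 21, 19 and 9 in DMBA/TPA, 17, 13 and 5 in the difference, and 15, 15 and 3 between acetone groups. Leaving out 1 library, member calls ranged from 0 to 1, 9 to 23, 1 to 10 and 0 to 10 in these 4 comparisons, and those of the other Wnt genes from 0 to 3, 14 to 33, 1 to 16 and 0 to 16. Each such fit leaves a group of 1 library, and the share of all genes called also moved widely in all 4 comparisons. The ranges alone therefore do not set the Wnt genes apart from other genes. With the replicate block members called were 0, 19, 4 and 4, and other Wnt genes 0, 28, 5 and 6. All genes called were 0.0257, 39.1, 10.8 and 4.29% in the same order. The sample numbers were not shown to pair libraries, since the labels do not tie them to animals and same-number deviations correlated between -0.202 and 0.0869. With total counts the median of all genes moved to -0.12 in DMBA/TPA, with 3675 genes higher and 4489 lower (4356 and 3561 with TMM), and 7 members higher and 11 lower.

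With the other acetone set as control, 14 of 44 members in DMBA and 11 of 44 in DMBA/TPA had the opposite sign; called among these were Sfrp1 (0.74) in DMBA, and Wnt5b (-0.88, adjusted p = 0.0405), Fzd2 (-1.14, 0.0223), Fzd6 (-0.32, 0.046) and Sfrp1 in DMBA/TPA. Among the genes recomputed under every alternative, signs turned as follows, log2 scale. In DMBA, Lgr5 (-0.01) was 0.33 with limma voom, 0.17 with the block, 0.21 with all 4 acetone libraries and 0.47 with the other set; Notum was 0.58 and Lef1 0.45 with the other set. In DMBA/TPA, Sfrp1 was -0.047 with all 4 acetone libraries and -0.46 with the other set, and with that set Sfrp2 was -0.17, Dact2 -0.067, Dact3 -0.14, Vangl1 -0.18, Celsr2 -0.052 and Nkd2 0.061. On leaving out a library, Lgr5 ranged from -0.70 to 1.34 in DMBA, -0.997 to 0.16 in DMBA/TPA, -1.67 to 0.38 in the difference and -1.16 to 0.89 between acetone groups, Wnt10a from -0.034 to 0.23 and Axin2 from -0.25 to 0.031 in DMBA. The cause was not tested. The fit of compared groups only was not run for the difference, nor were other acetone controls for the difference and the acetone comparison. The floor for Rspo4 covers counting error only.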
